A study of Arabidopsis thaliana with 4 samples.

Results

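The comparison described here sets the Arabidopsis thaliana leaf 4 °C library labelled Col-0 against the leaf 20 °C library labelled Col-0. These are 2 of the 4 RNA sequencing libraries in the series, and the pair labelled sme1-1 makes up the remainder. Per the labels, the plants were 2 weeks old and grew on soil in long days under light of 90 µmol m-2 s-1, and both lines are in the Col-0 background. The plants labelled 4 °C spent 24 h in the cold under 40 µmol m-2 s-1, so weaker light goes together with the lower temperature. The labels give the genotype of the first pair as wild type and name no other allele in it. They do not say how many plants were pooled, nor what kind of allele sme1-1 is. Each group is 1 library, so a difference has no replicate check: sizes are given without a test, and every interval is an exact 95% interval for the ratio of a pair of counts, which covers counting error only.

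SME1 encodes SmE, a subunit of the ring of Sm proteins that assembles around the small nuclear RNAs of the spliceosome, the machine that removes introns from messenger RNA. Plants exposed to low but non-freezing temperature undergo cold acclimation, in which CBF transcription factors switch on COR genes for protective proteins, and sugars, proline and flavonoids accumulate. Spliceosome subunits are studied in this setting because several mutants in them respond abnormally to cold.

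Reads mapped uniquely to genes numbered 47.2 M and 44.6 M in the pair labelled Col-0 (4 °C, then 20 °C) and 46.8 M and 45 M in the pair labelled sme1-1. Levels are given as CPM, the gene's reads per M reads of its file, and per-gene values over the 4 libraries follow this order. A count of 0 allows a level of up to 0.0636, 0.0672, 0.0641 and 0.0667 CPM (3 reads). Leaf markers summed to 79246 and 71787 CPM in the libraries labelled Col-0 4 °C and 20 °C, and all 5 of them were within 2-fold. The 5 flower markers summed to 1.95 and 1.99 CPM and the 5 seed markers to 0.7 and 0.336 CPM, with 3 of the 5 seed genes listed in any table. The 5 root markers summed to 123 and 130 CPM, and 2 of them averaged at least 1 CPM across the series. These 2 were within 2-fold. The iron transporter gene IRT1 had no read in either library labelled Col-0, so that sum came from the other root markers. Both libraries thus carried the leaf genes, some of the root markers and next to none of the flower or seed genes. In bulk leaf RNA, fewer cells of a type and less RNA per cell cannot be told apart.

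SME1 (AT2G18740), the gene the study targets, was read 32 times in the 4 °C library labelled Col-0 and 655 times in the 20 °C library labelled Col-0. In the pair labelled sme1-1 it was read 43 times at 4 °C and 1252 times at 20 °C. These counts are 0.679 and 14.7 CPM in the pair labelled Col-0, and 0.919 and 27.8 CPM in the pair labelled sme1-1. The gene was thus near absent in both libraries labelled 4 °C and present in both labelled 20 °C, whichever genotype the label names. In the pair labelled Col-0 it was 21.6-fold lower at 4 °C (15.2 to 31.9), a log2 ratio of -4.35. The pair labelled sme1-1 held it 30.3-fold lower. Reads covered 56.5% of the gene's length in the 4 °C library labelled Col-0 and 96.0% in the 20 °C library labelled Col-0. The deposited RPKM, which also divides by gene length, was 1.01 and 21.8 in those libraries, against 17.3 and 17.2 for SME2 (AT4G30330), the paralogue that encodes a near-identical protein. SME2 had 10.2 CPM in both libraries labelled Col-0, and 9.59 and 11.6 CPM in those labelled sme1-1. Its fold of 1.00 (0.880 to 1.14) in the pair labelled Col-0 shows no gain beside the lower SME1.

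The genotype label says wild type in both libraries compared, yet the targeted gene differs between them, and the 20 °C library labelled sme1-1 holds the most reads of it. The targeted gene thus goes against the labels. The pair can therefore be read in either of these ways, and directions below are directions between labels. If the labels stand, the comparison is 24 h of cold in wild-type leaves, and SME1 transcript was lower in cold wild type. If the labels sme1-1 20 °C and Col-0 4 °C were exchanged, no cold enters the comparison. It then sets a plant with little SME1 transcript against wild type at 20 °C. Under the exchange both libraries with few SME1 reads would be the mutant ones. The files hold gene totals and no independent mark of genotype, and which reading holds was not tested.

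The genes around SME1 on the chromosome show whether the loss extends beyond it. Of the 10 annotated genes on each side, 12 were listed in a table and 9 passed the filter on low counts, at least 1 CPM on average across the series. A gene counts as at least 2-fold apart below when its log2 ratio, taken with a prior count of 2 that draws low counts towards 0, is at least 1 or at most -1. None of the 9 neighbours was (all genes, 1.57%), and their log2 ratios ran from -0.99 (AT2G18690) to 0.12 (AT2G18770), with a median of -0.05. AT2G18690 lies at the line: its fold without the prior count was 2.03-fold lower (1.43 to 2.91), and it passes with a prior count of 0.5. The immediate neighbours DGK3, a diacylglycerol kinase gene, and AT2G18750 were at 10.5 and 26.4 CPM in the library labelled 4 °C, against 13.8 and 29.8 CPM in that labelled 20 °C.

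Cold-regulated genes, the usual readout of a cold treatment in this plant, were at nearly the same level in both libraries labelled Col-0. The 25 listed genes summed to 923 CPM in the 4 °C library labelled Col-0 and 899 CPM in the 20 °C library labelled Col-0. The sums were 25129 CPM at 4 °C and 21190 CPM at 20 °C in the pair labelled sme1-1. Of the 24 that passed the filter, none was higher by 2-fold or more in the 4 °C library labelled Col-0, where 0.796% of all 17218 genes compared were, and 1 was at least 2-fold lower, as were 0.778% of all genes. Their median log2 ratio was -0.01, beside -0.03 over all genes. In the pair labelled sme1-1, 4 of the 24 were at least 2-fold higher (all genes, 3.15%) and none lower (all genes, 2.47%), with a median of 0.32. The list's sum was thus low in both libraries labelled Col-0 and high in both labelled sme1-1. A sum weighs the best-read members most. The plot of SME1 and cold-regulated genes shows a chosen part of the list and not how the other members divide.

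**Figure D1:**
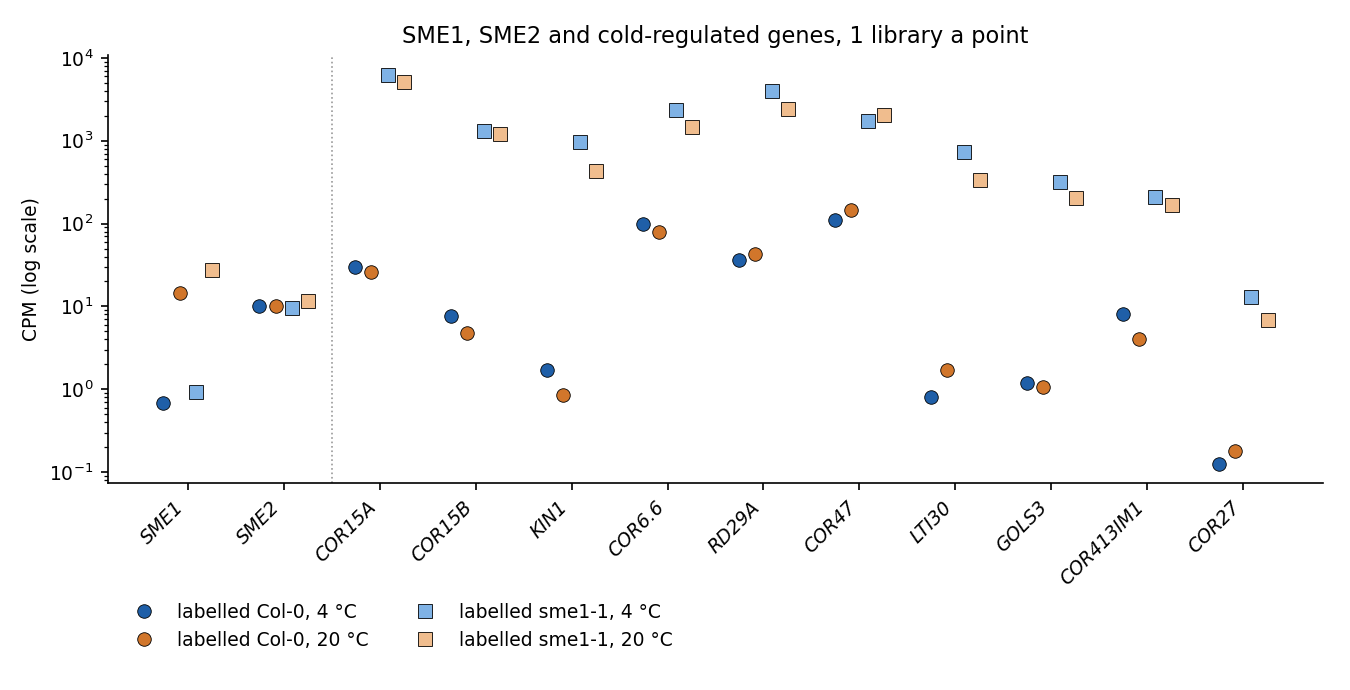
Level in CPM (log scale) of SME1, SME2 and 10 cold-regulated genes, each point 1 library, circles labelled Col-0 and squares labelled sme1-1, with 4 °C left of 20 °C. SME1 is at 0.679 and 0.919 CPM in the libraries labelled 4 °C and at 14.7 and 27.8 CPM in those labelled 20 °C, while the cold-regulated genes divide by genotype label.

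Among the protective proteins, COR15A, whose product shields chloroplast membranes during freezing, had 30.1 and 25.9 CPM in the pair labelled Col-0, against 6272 and 5092 CPM in the pair labelled sme1-1. Its fold of 1.16 (1.08 to 1.26) in the pair labelled Col-0 is small beside that gap. COR15B, its tandem relative, had 7.68 and 4.75 CPM (1.62-fold, 1.36 to 1.92), and 1292 and 1196 CPM in the pair labelled sme1-1. The dehydrin gene LTI30 was the member that was 2-fold lower, with 0.806 and 1.70 CPM from 38 and 76 reads (2.11-fold lower, 1.41 to 3.21). It had 725 and 339 CPM in the pair labelled sme1-1. Dehydrins protect membranes and proteins as cells lose water. The dehydrin genes COR47 (110 and 145 CPM), ERD14 (95 and 113 CPM) and ERD10 (184 and 166 CPM) had log2 ratios of -0.40, -0.25 and 0.15. RD29A, a classical reporter of cold and drought, had 36.6 and 43.4 CPM, a log2 ratio of -0.24.

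The upper end of the list held KIN1 and COR413IM1, which fall just short of the 2-fold line once a prior count of 2 is added. KIN1, which encodes a small hydrophilic protein, had 1.72 and 0.852 CPM from 81 and 38 reads (2.02-fold, 1.36 to 3.05), and 974 and 428 CPM in the pair labelled sme1-1. COR413IM1, a gene for a chloroplast inner membrane protein, had 8.06 and 4.01 CPM (2.01-fold, 1.68 to 2.41). With TMM or median-of-ratios scaling both genes pass the line, and the list's median turns to 0.03 or 0.02. The early light-induced genes ELIP2 and ELIP1, which respond to light stress as well as cold, had 43.5 and 26.2 CPM and 106 and 68.5 CPM, folds of 1.66 (1.54 to 1.78) and 1.55 (1.48 to 1.62). COR6.6 had 100 and 79.5 CPM, a log2 ratio of 0.33. COR413-PM1 was at 66.2 and 60.3 CPM and COR413IM2 at 13.0 and 11.2 CPM, with log2 ratios of 0.13 and 0.21. The folds of KIN1 and COR413IM1 are small beside the distance of these genes between genotype labels, COR413IM1 being at 210 and 169 CPM in the pair labelled sme1-1. That distance is not given here for the other genes of this paragraph.

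The remaining members spanned log2 ratios from -0.74 to 0.14. The glycine-rich RNA-binding gene GRP8 had 25.3 and 42.3 CPM (-0.74), and its relative GRP7 62.0 and 63.5 CPM (-0.03). The RNA chaperone gene CSP3 had 15.7 and 23.7 CPM (-0.59). EARLI1 and AZI1, neighbouring lipid-transfer-like genes, had 0.488 and 0.807 CPM (-0.68) and 4.14 and 5.16 CPM (-0.31). The galactinol synthase gene GOLS3, which starts raffinose synthesis, had 1.19 and 1.08 CPM (0.14) in the pair labelled Col-0, against 319 and 202 CPM in the pair labelled sme1-1. RCI2B (3.24 and 4.71 CPM), RCI2A (5.22 and 5.13 CPM) and the alcohol dehydrogenase gene ADH1 (2.25 and 2.49 CPM) had log2 ratios of -0.53, 0.02 and -0.14. COR27, a repressor that links cold to the clock, had 6 and 8 reads, and COR28, with 2 and 9 reads, did not pass the filter.

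Upstream of the COR genes, 13 of 18 cold signalling genes passed the filter, with a median of -0.04. Of these, 1 was past 2-fold in each direction (all genes, 0.796% higher and 0.778% lower). CBF2 had 26 and 31 reads, 0.551 and 0.695 CPM (-0.31), and CBF1 and CBF3 had at most 8 reads in either library labelled Col-0 and did not pass. Their inducer ICE1 had 29.9 and 30.5 CPM (-0.03). The zinc finger gene ZAT12, induced by many stresses, had 2.04 and 0.897 CPM from 96 and 40 reads (2.27-fold higher, 1.56 to 3.37). RAV1, a growth-restraining transcription factor gene, had 6.04 and 13.9 CPM (2.30-fold lower, 1.99 to 2.65). In the pair labelled sme1-1, ZAT12 had 4.64 and 2.65 CPM and RAV1 27.5 and 50.3 CPM, the same directions at less than 2-fold.

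The other subunits of the ring that holds SmE were level between the libraries labelled Col-0. All 13 Sm genes passed the filter, none was 2-fold higher, and SME1 alone was 2-fold lower (all genes, 0.796% and 0.778%). The 12 others had log2 ratios from -0.30 to 0.32. The lowest were SMD3b (31.8 and 39.0 CPM), SMF (33.1 and 36.8 CPM) and SMD3a (37.8 and 40.7 CPM), at -0.30, -0.15 and -0.11. The highest were SMD1b (25.5 and 20.4 CPM), SMD1a (4.26 and 3.41 CPM) and SMG2 (29.9 and 25.5 CPM), at 0.32, 0.32 and 0.23. In between lay SMD2b (26.7 and 28.2 CPM), SMD2a (14.5 and 14.9 CPM), SMG1 (87.4 and 85.2 CPM), SMBb (50.9 and 49.4 CPM) and SMBa (12.3 and 11.3 CPM), with log2 ratios from -0.08 to 0.12.

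Other splicing genes stayed within 2-fold as well, as did 16947 of all 17218 genes, so lists with none called do not set these genes apart. None of 11 LSM genes, which encode the related rings of U6 small nuclear RNA and of mRNA decapping, was 2-fold apart (median -0.10). The same held for 18 genes of small nuclear RNP assembly and the spliceosome core (median 0.06) and for 8 mRNA decay genes (median 0.02). The highest of these was STA1, a splicing factor gene needed for stress responses, with 48.6 and 34.7 CPM in the pair labelled Col-0 (log2 ratio 0.48). Of 20 SR splicing factor genes 19 passed and none was 2-fold apart (median -0.03). SR30, whose transcript responds to light and stress, was the highest at 20.7 and 15.1 CPM (0.45), and RS31a the lowest at 3.16 and 4.68 CPM (-0.56). Gene totals do not show which introns were removed, so a difference in splicing at equal totals would not appear here.

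Over all genes, 137 stood 2-fold or more higher in the 4 °C library labelled Col-0, 134 as far lower (1.57% either way) and 16947 lay within 2-fold. By the same rule 969 genes (5.63%) were apart in the pair labelled sme1-1. The comparisons across genotype labels held 2744 genes (15.9%) for sme1-1 20 °C against Col-0 20 °C and up to 3705 genes (21.5%) for sme1-1 4 °C against Col-0 20 °C. The libraries labelled Col-0 were thus the closest pair of the series. The 5th and 95th percentiles of the log2 ratio were -0.55 and 0.45 in the pair labelled Col-0, against -0.78 and 0.83 in the pair labelled sme1-1.

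Most genes past 2-fold were read at low levels. Among the 2439 genes with a mean of 1 to 3 CPM, 6.48% were called, and among the 1572 genes at 100 CPM or more 0.254% were, which are 1 gene higher and 3 lower. For 53 of the 137 higher genes and 36 of the 134 lower ones, the counting interval lay wholly past 2-fold. Just inside the line were DL1B (log2 ratio 1.00257) and AT5G11230 (-1.00175), and just outside it COR413IM1 (0.998446) and the plastid gene ATCG00360 (-0.997968). Of 101 genes annotated as pseudogenes 10 were higher and 3 lower (12.9%), against 127 and 130 of 17028 protein-coding genes (1.51%). The pseudogenes had a median level of 3.87 CPM and the protein-coding genes 14.6 CPM, and the part of this gap in level was not tested.

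**Figure D2:**
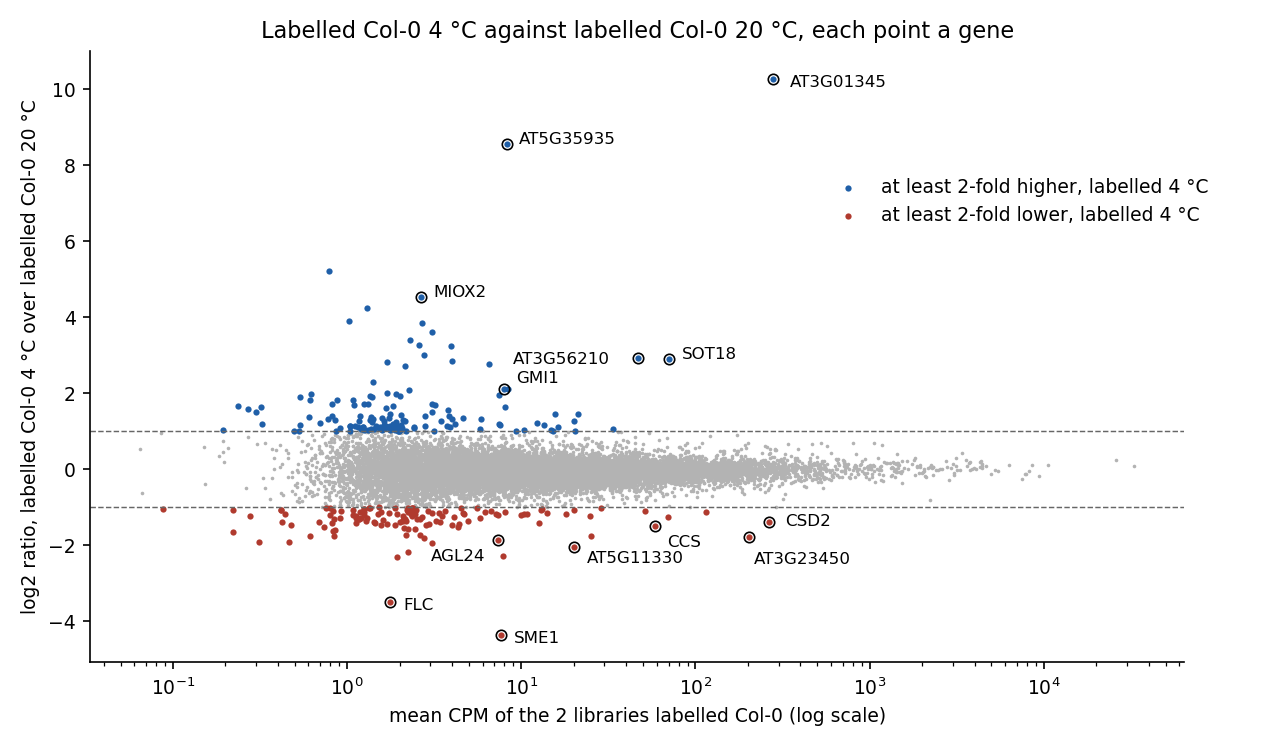
Log2 ratio of labelled Col-0 4 °C over labelled Col-0 20 °C against the mean CPM of both libraries (log scale), each point 1 of 17218 genes, with dashed lines at 2-fold. The 137 higher genes and 134 lower genes lie mostly at low CPM, and SME1 (-4.35) is the lowest point.

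The 15 largest ratios in the higher direction were led by genes with no described function. AT3G01345, annotated as an uncharacterized protein, had 26243 reads in the 4 °C library labelled Col-0 and 18 in the 20 °C library labelled Col-0. Its reads were 41147 at 4 °C and 32 at 20 °C in the pair labelled sme1-1. It was thus off in both libraries labelled 20 °C and among the well-read genes in both labelled 4 °C, with 557 and 0.403 CPM (1380-fold higher, 873 to 2328) in the pair labelled Col-0. The pseudogene AT5G35935 had 777 reads and no read in the pair labelled Col-0, at least 245-fold higher, and 700 and 2 reads in the pair labelled sme1-1. Its reads covered 34.7% of its length in the 4 °C library labelled Col-0 and 33% in that labelled sme1-1. SADHU3-2 (AT3G42658), a non-coding retroelement of the Sadhu family, had 74 reads and no read in the pair labelled Col-0, at least 23.3-fold higher. The third pseudogene of the group, AT1G43590, had 118 and 4 reads (27.9-fold, 10.6 to 104). AT5G53230, of the DUF295 family, had 92 and 4 reads (21.8-fold, 8.22 to 81.6). These genes, silent or nearly so in the 20 °C library labelled Col-0, were all read in both libraries labelled 4 °C.

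Genes of known function in that set belong to several processes. MIOX2, which encodes a myo-inositol oxygenase that opens the route to cell wall sugars, had 5.11 and 0.179 CPM (28.5-fold, 14.2 to 66.8). It was the member of the 15 that was not 2-fold higher in the pair labelled sme1-1, where it had 0.192 and 0.133 CPM. NDB4, a mitochondrial NAD(P)H dehydrogenase gene, had 5.09 and 0.314 CPM (16.2-fold, 9.48 to 30.1), and 19.0 and 0.6 CPM in the pair labelled sme1-1. QQS, a gene found in Arabidopsis alone that affects starch content and whose silencing varies between strains, had 5.71 and 0.426 CPM (13.4-fold, 8.41 to 22.6). The chromatin remodelling gene chr31, of the CLASSY family that acts in RNA-directed DNA methylation, had 4.24 and 0.359 CPM (11.8-fold, 7.11 to 21.1). NAC044, a transcription factor gene of the DNA damage response, had 4.96 and 0.583 CPM (8.52-fold, 5.67 to 13.3). The transcription factor genes LBD26 (4.71 and 0.448 CPM) and LBD40 (7.02 and 0.941 CPM) and the RING finger gene AT5G60250 (7.23 and 0.717 CPM) were 10.5-fold, 7.46-fold and 10.1-fold higher. AT3G56210, an ARM repeat protein gene, had 82.7 and 10.7 CPM (7.71-fold, 7.01 to 8.49), and 57.7 and 7.45 CPM in the pair labelled sme1-1. It and SOT18, described with the glucosinolate genes, were the best-read members after AT3G01345.

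**Figure D3:**
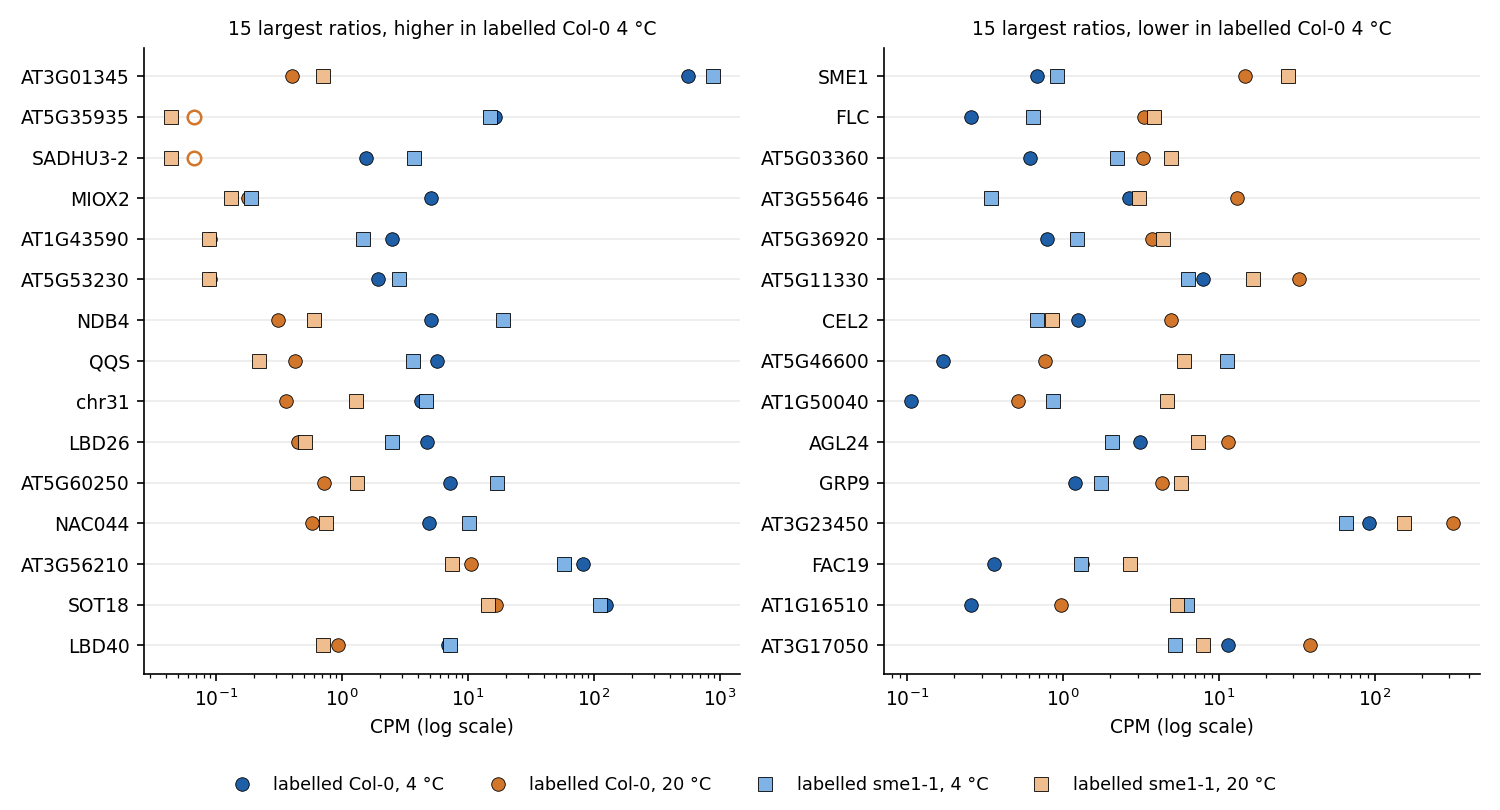
CPM (log scale) in each of the 4 libraries for the 15 genes with the largest ratios in each direction between the libraries labelled Col-0, circles labelled Col-0 and squares labelled sme1-1, an open circle marking the level that a count of 0 allows. Of the 15 higher genes 14 were also at least 2-fold higher in the pair labelled sme1-1 (all genes, 3.15%). Of the 15 lower genes 11 were also at least 2-fold lower there (all genes, 2.47%). SADHU3-2 and 4 of the lower genes averaged under 1 CPM in the pair labelled Col-0 and passed the filter through the libraries labelled sme1-1.

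In the lower direction SME1 came first and FLC second. AGL24 and FLC are described with the flowering genes, and several of the rest have no described function. AT3G23450, an uncharacterized protein gene, was the best read with 92.1 and 316 CPM (3.44-fold lower, 3.32 to 3.56), and 65.8 and 155 CPM in the pair labelled sme1-1. AT5G11330, an oxidoreductase family gene, had 7.87 and 32.4 CPM (4.12-fold lower, 3.67 to 4.63), and the pseudogene AT3G17050 11.5 and 38.5 CPM (3.36-fold lower, 3.05 to 3.71). The cellulase gene CEL2 had 1.25 and 4.89 CPM (3.91-fold lower) and the glycine-rich protein gene GRP9 1.19 and 4.30 CPM (3.62-fold lower). AT5G03360, AT3G55646 and AT5G36920 were 5.25-fold, 4.95-fold and 4.71-fold lower, at 0.615, 2.63 and 0.785 CPM in the library labelled 4 °C. The other four, AT5G46600 of a malate transporter family, AT1G50040, FAC19 and the SAUR-like gene AT1G16510, had 5 to 17 reads in the library labelled 4 °C and 23 to 59 in that labelled 20 °C. These 4 averaged under 1 CPM in the pair labelled Col-0. AT5G46600 and AT1G16510 had positive log2 ratios in the pair labelled sme1-1, 0.90 and 0.21.

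Flowering genes held the lowest ratio after SME1. FLC, the MADS-box repressor of flowering that long cold silences and whose antisense transcripts are spliced, had 12 reads in the 4 °C library labelled Col-0 and 147 in the 20 °C library labelled Col-0. These are 0.255 and 3.29 CPM (12.9-fold lower, 7.19 to 25.6), and the pair labelled sme1-1 had 0.641 and 3.82 CPM (5.97-fold lower). Like SME1, FLC was low in both libraries labelled 4 °C. Sense and antisense reads are not separated in the tables. AGL24, a promoter of flowering, had 3.12 and 11.5 CPM (3.67-fold lower, 3.05 to 4.44), and 2.05 and 7.36 CPM in the pair labelled sme1-1. MAF5, an FLC relative, had 10.5 and 4.68 CPM (2.24-fold higher, 1.90 to 2.65), and 15.4 and 4.78 CPM in the pair labelled sme1-1. SOC1, an activator that FLC represses, had 14.9 and 8.81 CPM (1.69-fold, 1.49 to 1.92), and 71.4 and 34.2 CPM in the pair labelled sme1-1. Of 23 flowering genes 18 passed the filter, 1 at least 2-fold higher and 2 lower (all genes, 0.796% and 0.778%), with a median of -0.08. The other FLC relatives MAF1 to MAF4 had log2 ratios from -0.43 to 0.32, and SVP, which acts with FLC, had 48.7 and 56.2 CPM (-0.21).

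Both copper/zinc superoxide dismutase genes listed, and the gene of their copper chaperone, were lower. Copper/zinc superoxide dismutases remove superoxide, and when copper is short Arabidopsis replaces them with the iron enzyme FSD1, while the microRNA miR398 removes their messages. CSD2, the chloroplast enzyme, had 6872 reads in the 4 °C library labelled Col-0 and 17012 in the 20 °C library labelled Col-0. These are 146 and 381 CPM (2.62-fold lower, 2.54 to 2.69). CSD1, the cytosolic enzyme, had 41.1 and 97.9 CPM (2.38-fold lower, 2.26 to 2.51). CCS, the chaperone that loads their copper, had 30.5 and 86.1 CPM (2.82-fold lower, 2.65 to 3). The iron enzyme gene FSD1 had 571 and 357 CPM (1.6-fold higher, 1.57 to 1.63) and the copper transporter gene COPT2 8.19 and 5.45 CPM (1.5-fold higher, 1.28 to 1.77). Each of the 5 had the same direction in the pair labelled sme1-1, with log2 ratios of -1.03 for CSD2, -0.51 for CSD1, -1.17 for CCS, 1.26 for FSD1 and 0.72 for COPT2. The copper genes belong to a list of 23 iron and copper genes, of which 17 passed, none 2-fold higher and these 3 lower (all genes, 0.796% and 0.778%; median -0.22). The ferritin genes FER1, FER3 and FER4, which store iron, had log2 ratios of 0.25, 0.18 and 0.15. The iron regulator genes PYE (41.6 and 62.0 CPM) and BTS (91.3 and 119 CPM) were at -0.57 and -0.38.

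Aliphatic glucosinolate genes, which make sulfur-rich defence compounds of cabbage relatives from methionine, leaned to the 4 °C library labelled Col-0. Of 17 listed genes 16 passed the filter, 15 with a ratio above 0, 1 of them (SOT18) at least 2-fold, and 1 (MAM3) was lower by as much. Over all genes 7510 of 17218 had a ratio above 0 (43.6%), 0.796% were higher by 2-fold and 0.778% lower. The list's median log2 ratio was 0.51. Their median was 0.48 in the pair labelled sme1-1. SOT18, the sulfotransferase of the last step of the core structure, had 5894 reads in the 4 °C library labelled Col-0 and 748 in the 20 °C library labelled Col-0 (125 and 16.8 CPM, 7.46-fold higher, 6.91 to 8.06). It had 112 and 14.4 CPM in the pair labelled sme1-1 (7.75-fold higher), so the 4 libraries fall into the same high and low levels in both pairs. SOT17, of the same family and step, had 50.5 and 37.3 CPM (1.35-fold, 1.27 to 1.44). MAM3, which elongates the side chain, had 6.64 and 15 CPM (2.26-fold lower, 1.98 to 2.60), and 7.07 and 14.7 CPM in the pair labelled sme1-1. MAM1, its tandem neighbour, had 456 and 315 CPM (log2 ratio 0.53). The regulator genes MYB28, MYB29 and MYB76 had 138, 77.0 and 4.6 CPM at 4 °C against 116, 55.1 and 2.69 CPM at 20 °C (0.25, 0.48 and 0.77). CYP79F1 and CYP83A1, which form the core, had log2 ratios of 0.68 and 0.53.

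DNA damage genes included GMI1, a protein gene of homologous recombination, with 12.9 and 2.96 CPM (4.37-fold higher, 3.62 to 5.32). GMI1 had, in the pair labelled sme1-1, a log2 ratio of 3.07. It was the 1 member of 10 passing genes (12 listed) past 2-fold (all genes, 0.796% higher and 0.778% lower), and the median was 0.33. BRCA1 (6.30 and 3.47 CPM) and PARP2 (6.55 and 3.65 CPM), which act in DNA repair, had log2 ratios of 0.85 and 0.84. SOG1, the master regulator of this response in plants, had 5.47 and 5.65 CPM (-0.05). The cell cycle list, with 15 of 15 genes passing, had none past 2-fold (median 0.17).

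The counts in the lists that follow stand beside 0.796% of all genes higher and 0.778% lower. Of the 32 list members called in any list, 7 averaged under 1 CPM in the pair labelled Col-0 and passed the filter through the libraries labelled sme1-1. They are HAI2, RD29B, PRR3, UGT78D3, DTX1, PAD3 and CRK7, and none of the 7 is called when the filter is taken over the pair labelled Col-0 alone. Hormone lists held a few members past 2-fold. Of 27 abscisic acid genes 26 passed, 2 at least 2-fold higher (0 with the filter over that pair) and none lower (median 0.14). HAI2, a phosphatase that dampens abscisic acid signalling and is induced by it, had 48 and 10 reads, 1.02 and 0.224 CPM (4.54-fold, 2.27 to 10.1). RD29B, an abscisic acid reporter, had 36 and 14 reads (2.43-fold, 1.28 to 4.88). Of 23 jasmonate genes 15 passed and 1 was higher: AOC2, an allene oxide cyclase of jasmonate synthesis, with 28.3 and 11.6 CPM (2.44-fold, 2.2 to 2.70; list median 0.25). Of 20 salicylic acid and defence genes 15 passed and 1 was lower: PR1, the usual marker of this pathway, with 28 and 74 reads (2.79-fold lower, 1.79 to 4.48; list median -0.05). Of 22 light and gibberellin genes 18 passed, and PIL1, a gene that shade induces, was higher at 2.55 and 1.21 CPM (2.1-fold, 1.51 to 2.96).

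Camalexin is an indole antimicrobial of Arabidopsis, and 2 of 8 genes in its list were at least 2-fold lower, 1 with the filter over the pair labelled Col-0 (all genes, 0.778%; median -0.18). CYP71A13, which makes an early intermediate, had 393 and 786 reads (2.11-fold lower, 1.87 to 2.39). Those reads covered 36.7% and 48.9% of its length, while 968 and 156 reads covered 96% and 92.8% in the pair labelled sme1-1. Whether they come from the whole transcript was not tested. PAD3, which catalyses the final step, had 12 and 28 reads (2.47-fold lower, 1.21 to 5.32). Of 15 mitochondrial retrograde genes 12 passed, 1 higher (0 with the filter over that pair) and 2 lower (median -0.11). The transporter genes DTX1 (22 and 6 reads) and DTX3 (AT2G04050; 50 and 141 reads) were apart in opposite directions, at 1.52 and -1.54. UPOX had 2.31 and 5 CPM (2.16-fold lower, 1.71 to 2.74), and the alternative oxidase gene AOX1A 860 and 1121 reads (log2 ratio -0.46). In the pair labelled sme1-1, 9 of these 12 were at least 2-fold higher (all genes, 3.15%) and the median was 1.62 (all genes, 0.03). The receptor kinase cluster list had 8 of 9 genes passing and 1 lower, CRK7, with 22 and 54 reads (2.59-fold lower, 1.55 to 4.47), or 0 lower with the filter over the pair labelled Col-0.

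Flavonoid genes, which make sunscreen pigments and anthocyanins, had 23 of 25 members passing, 2 higher, or 1 with the filter over the pair labelled Col-0, and none lower (median 0.19). The anthocyanin xylosyltransferase gene UGT79B1 had 13.9 and 6.77 CPM (2.06-fold, 1.79 to 2.37). The flavonol glycosyltransferase gene UGT78D3 rested on 13 and 5 reads, and its interval of 0.823 to 8.81 includes equality. Sugar and osmolyte genes had 22 of 24 passing, with GPT2, a plastid glucose-phosphate transporter that sugar induces, at 1.99 and 0.740 CPM (2.70-fold, 1.80 to 4.14), and a median of 0.06. Of 13 sugar starvation genes 10 passed and KFB20 was lower at 4.43 and 10.2 CPM (2.31-fold lower, 1.95 to 2.73; list median -0.15). Of 24 clock genes 23 passed and 2 were higher, 1 with the filter over the pair labelled Col-0 (median 0.08): BOA, which acts beside LUX in the evening complex, with 82 and 28 reads (2.77-fold, 1.78 to 4.42), and PRR3 with 42 and 14 reads (2.84-fold, 1.52 to 5.63). Expansin and XTH genes, which loosen cell walls, had 23 of 26 passing and 1 lower, XTH23, with 1.23 and 3.09 CPM (2.51-fold lower, 1.84 to 3.48; list median -0.25).

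**Figure D4:**
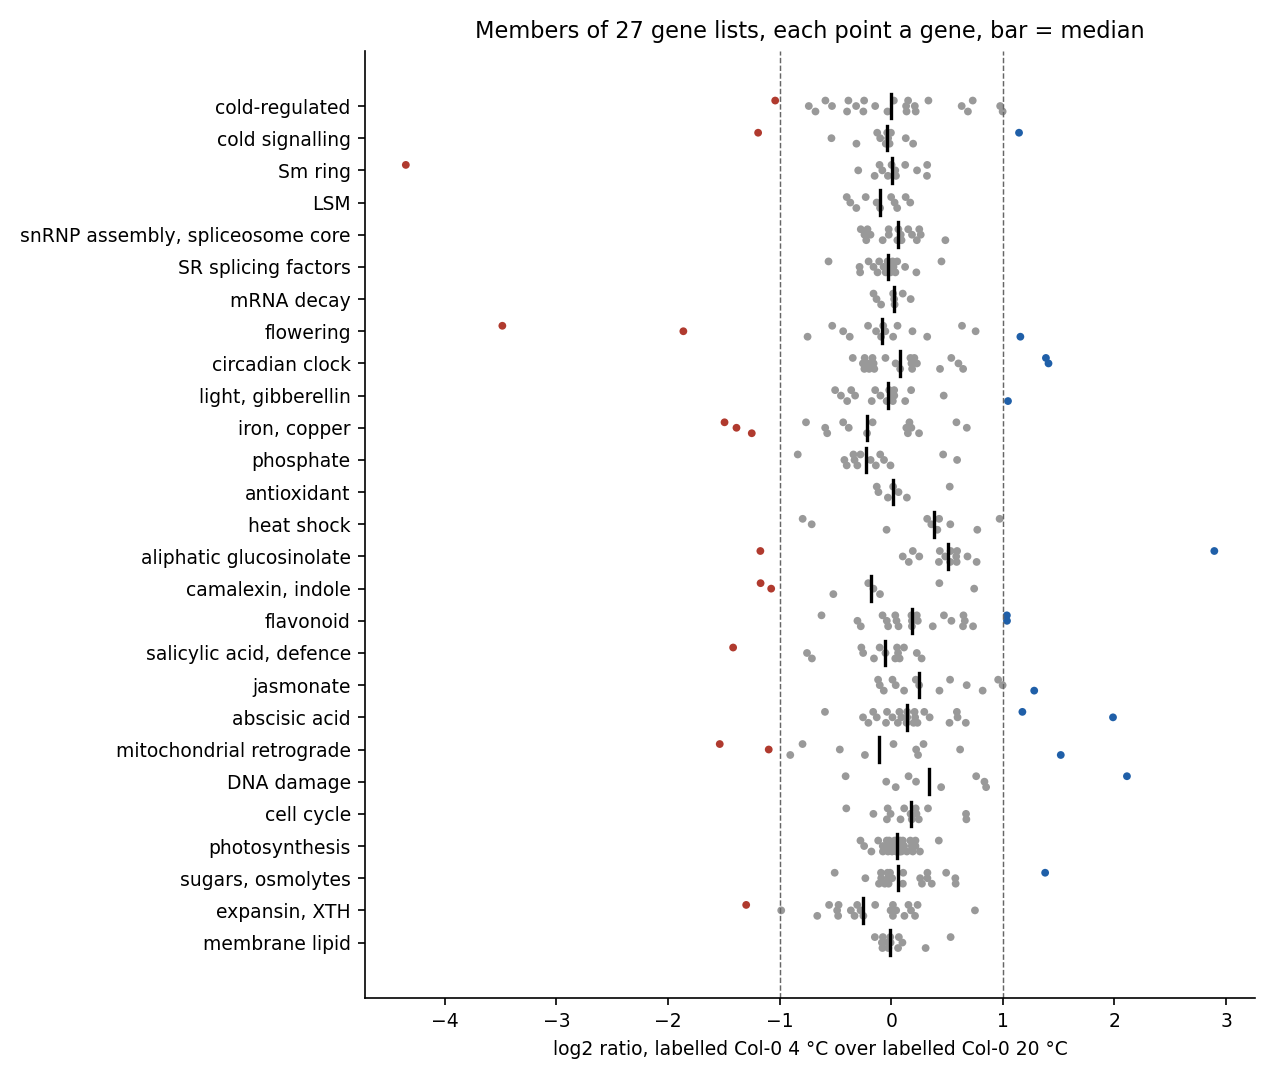
Log2 ratio of labelled Col-0 4 °C over labelled Col-0 20 °C for each member that passed the filter in gene lists by process, each point a gene, the bar the list's median and dashed lines at 2-fold. SME1 (-4.35) and FLC (-3.49) lie furthest below and SOT18 (2.90) furthest above, while the cold-regulated median is -0.01.

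The remaining lists had no member called among those that passed. They were photosynthesis (34 of 34 passed, median 0.05, log2 ratios from -0.28 to 0.43), aquaporins (13 of 13, -0.04), membrane lipids (13 of 14, -0.01), antioxidant enzymes (7 of 8, 0.02), phosphate starvation (14 of 19, -0.23), rapid stress genes (11 of 13, -0.33), heat shock (10 of 16, 0.39), shoot meristem (4 of 8, 0.11) and vascular markers (5 of 5, 0.07). Photosynthesis genes, the best-read set, summed to 185432 CPM in the library labelled 4 °C and 175893 CPM in that labelled 20 °C. Heat shock genes had the highest median of these lists, with the chaperone gene HSP70 at 49.3 and 25.1 CPM (1.96-fold, 1.83 to 2.11) and HSP90.1 at 13.5 and 7.91 CPM (1.71-fold, 1.5 to 1.95). Of 77 plastid-encoded genes 64 passed and none was called (median 0.24), with ATCG00360 at the line (72 and 138 reads, 2.03-fold lower, 1.51 to 2.73) and called with a prior count of 0.5. Of 70 mitochondrion-encoded genes 15 passed and 1, ATMG01360, was lower (-1.14; median -0.17).

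The pair labelled sme1-1 shares no library with the pair labelled Col-0, so the same genes can be set side by side. Of the 137 genes at least 2-fold higher in the pair labelled Col-0, 76 were also at least 2-fold higher in the pair labelled sme1-1, which is 55.5% of the first list and 14% of the 543 genes of the second. Over all genes 3.15% were higher in the pair labelled sme1-1 and 2.47% lower. Of the 134 genes at least 2-fold lower, 47 were also lower, which is 35.1% of the first list and 11.0% of the 426 genes of the second. At any size, 127 of the 137 and 103 of the 134 had the same sign in the pair labelled sme1-1, where 52.3% of all genes were above 0 and 47.7% below. The 137 higher genes had medians of 1.28 in the pair labelled Col-0 and 1.18 in the pair labelled sme1-1, and the 134 lower genes -1.23 and -0.67. No gene was 2-fold higher in the first pair and 2-fold lower in the second, and 14 were 2-fold lower in the first and 2-fold higher in the second, 10.4% of the 134 and 2.58% of the 543. Of the 137 higher genes 22 averaged under 1 CPM in the pair labelled Col-0, as did 25 of the 134 lower genes. These passed the filter through the libraries labelled sme1-1. With the filter over the pair labelled Col-0, 122 genes were higher and 119 lower, 70 and 48 of them in both pairs.

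**Figure D5:**
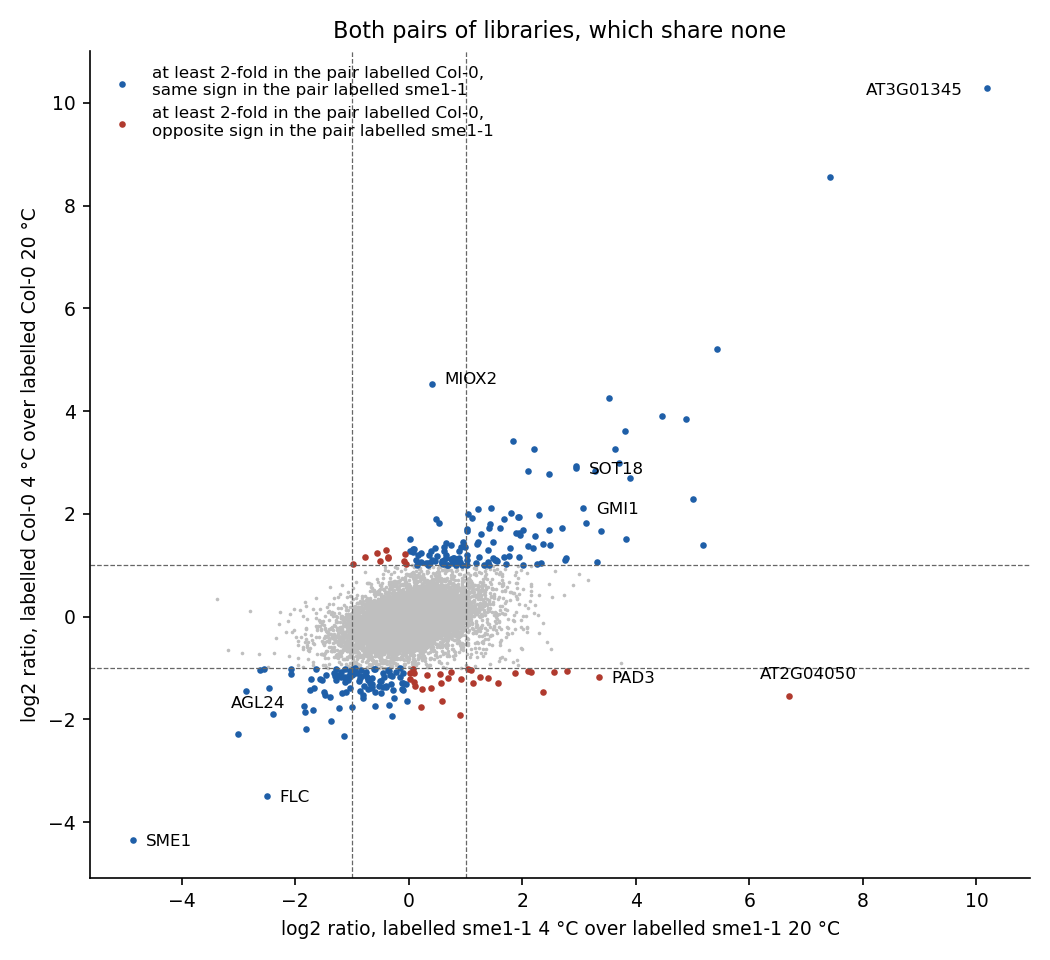
Log2 ratio of 4 °C over 20 °C in the pair labelled Col-0 (vertical) against the pair labelled sme1-1 (horizontal), each point 1 of 17218 genes, with dashed lines at 2-fold. SME1 and FLC are low and AT3G01345, SOT18 and GMI1 high in both pairs, MIOX2 is high in the pair labelled Col-0, and PAD3 and AT2G04050 (DTX3) are low in it but high in the pair labelled sme1-1.

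Each reading leaves values that can be set beside it. With the labels as they stand, 24 h at 4 °C went with COR15A at 30.1 CPM and LTI30 at 0.806 CPM in wild type, while the 20 °C library labelled sme1-1, kept warm, had 5092 and 339 CPM of them. With the 2 labels exchanged, both libraries whose cold-regulated genes sum to 25129 and 21190 CPM would be cold ones, and both with under 1 CPM of SME1 would be mutant ones. The pair labelled sme1-1 would then set the mutant against wild type in the cold. The genes listed above as high or low in both pairs, among them AT3G01345, SOT18, FLC and CCS, go with the level of SME1 in all 4 libraries under either reading. Temperature and loss of SME1 as the source of these differences cannot be told apart from the labels and 1 library a group.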

How the data were processed

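RNA sequencing of leaf RNA gave 1 table for each of 4 libraries, with 1 library per group. Per the file headers, the authors' count column holds uniquely mapped reads of a gene. Coverage was deposited as the percent of a gene's length under reads, and the deposited RPKM was recomputed from count, length and file total to within 1e-06. The build TAIR10 is named in the submitters' processing notes, while aligner, counting program and strand are unnamed there (not given in the sources used here). Reads that fit several gene copies are not in the counts, which limits near-identical pairs such as SME1 and SME2 or KIN1 and COR6.6. Overlapping genes and antisense transcripts cannot be told apart.

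Counts were scaled to CPM by file totals, a missing gene was taken as 0, and 17218 of 23049 listed genes averaged at least 1 CPM across the series. Log2 ratios used a prior count of 2. Folds carry no prior count, and their 95% intervals are exact (Clopper-Pearson, conditional on the summed count). PCR copies are not separated, so intervals and floors of 3 counts cover counting error only. A gene was called at a log2 ratio of at least 1 or at most -1, with no p-value. The steps were tested on simulated counts that hold counting error only, which cannot show the spread between libraries. Alternatives used TMM (edgeR 4.0.16) and median-of-ratios factors (DESeq2 1.42.0) in R 4.3.3, other filters and other prior counts. Other steps ran in Python 3.11.15 with pandas 2.3.3, numpy 2.4.6, matplotlib 3.10.9 and scipy 1.17.1.

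Gene names come from matching codes to the TAIR10.1 annotation (22861 codes matched, 188 not), used for names and gene order, with no coordinates. Of 582 genes in the hand-written lists 551 were paired with their symbol there and 31 were taken by code. The comparison and the lists were chosen with earlier results of these data known. Named genes are SME1, SME2, the 15 largest ratios each way, every cold-regulated and Sm gene, up to 4 members past 2-fold each way in each list or otherwise the 2 furthest from 0, and the neighbours of SME1. Other list members named were chosen after their values were seen, among them SOC1, SVP, MAF1 to MAF4, FSD1, COPT2, SOT17, SOG1, ICE1, AOX1A, HSP90.1, the small heat shock genes and IRT1.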

Additional observations from a re-analysis of the deposited data

Results flagged for a closer look

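Named list members were singled out where the ratios of both pairs passed 2-fold in opposite directions. With 1 library per group this difference was not tested for any of them. There were 6, and each was lower at 4 °C than at 20 °C in the pair labelled Col-0 and higher at 4 °C than at 20 °C in the pair labelled sme1-1. They are part of 14 genes with this pattern among all genes compared, and no gene showed the reverse. Several of the 14, PAD3 and CRK7 among them, averaged under 1 CPM in the pair labelled Col-0. Those passed the filter through the libraries labelled sme1-1, where their levels were higher. No conclusion is drawn from 14 against none.

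The dehydrin gene LTI30 had log2 ratios of -1.04 in the pair labelled Col-0 and 1.1 in the pair labelled sme1-1. In the camalexin genes PAD3 and CYP71A13 the ratios were -1.17 and -1.08 in the pair labelled Col-0, against 3.36 and 2.56 in the pair labelled sme1-1. Reads covered 36.7% and 48.9% of CYP71A13 in the first pair and 96% and 92.8% in the second, so its ratios may not compare the same part of the gene. The mitochondrial stress gene UPOX had -1.10 and 1.86, in that order of pairs. The transporter gene DTX3 had -1.54 and 6.70, from 1.06 and 3.16 CPM in the pair labelled Col-0 and 9.12 and 0.0445 CPM in the pair labelled sme1-1. For the receptor kinase gene CRK7 the ratios were -1.30 and 1.58.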

How the results depend on the processing

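Of 914 values of 131 results under other settings, 856 moved by less than the counting interval or 1.5 times and 58 moved further. No called ratio turned its sign, but 10 list medians did, in 5 lists and all within 0.11 of 0, among them the cold-regulated one (-0.01, and 0.08 with the filter over the pair labelled Col-0). The counts of all genes depend most on the filter. Without a filter on low counts 737 genes stood at least 2-fold higher in the 4 °C library labelled Col-0 and 1145 lower, and 262 and 299 were so in both pairs. With a mean of at least 5 CPM the counts were 38 and 38, and 24 and 18 in both pairs. With the counting interval wholly past 2-fold, the counts were 53 and 36. In these settings fewer or more low-count genes enter by construction. TMM and median-of-ratios factors shifted the median log2 ratio of all genes to 0.00 and -0.01. Among cold-regulated genes 2 were higher with TMM, 2 with median-of-ratios factors and 2 with a prior count of 0.5, in each case KIN1 and COR413IM1. The count lower was 2 without a filter (COR28 and LTI30) and 0 with a prior count of 5. No paired analysis was possible because each group is 1 library, and for the same reason no replicate could be left out. Replicate spread, splicing of single introns, strand and the number of plants pooled are not in the files, so the sizes hold for these libraries only.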

Other observations

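Small heat shock genes, chaperones that bind unfolding proteins, mostly lay below the filter on low counts. HSP17.6A had 94 reads in the 4 °C library labelled Col-0 and 6 in the 20 °C library labelled Col-0 (14.8-fold, 6.56 to 41.4), and 0 and 0.0445 CPM in the pair labelled sme1-1. It passes, as the 1 heat shock gene called higher, when the filter is taken over the pair labelled Col-0. HSP17.4 had 14 reads and none in the pair labelled Col-0, and HSP21 and HSP23.6 had 6 reads and none each. HSP17.6II had 26 and 12 reads (2.05-fold, 0.999 to 4.46). Their regulator gene HSFA2 passed the filter with 2.97 and 2.22 CPM (1.34-fold, 1.03 to 1.75).

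The 8 other genes that were lower in the 4 °C library labelled Col-0 and higher in the 4 °C library labelled sme1-1 include CYP81F2, an indole glucosinolate gene, with log2 ratios of -1.19 and 1.40, from 55 and 121 reads in the pair labelled Col-0 and 168 and 60 in the pair labelled sme1-1. CYP81F2 was chosen after its values were seen.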
